A study of Homo sapiens with 9 samples.

Results

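The anterior neuroectoderm genes described here are OTX2, ZIC2, FABP7, SOX3 and MSI1, 5 of the 11991 genes with a named probe. They were chosen by their gene symbols, with earlier results of these data known. They were read by 6 probes, as OTX2 has 2 and each other gene 1. Illumina human expression BeadChips, on which bead-bound oligonucleotide probes capture labelled copies of total RNA, were hybridised with 9 samples, 3 in each of 3 groups, all from H9, a human embryonic stem cell line. The hESC group grew as undifferentiated colonies over a layer of mouse feeders, in medium holding 4 ng/ml of bFGF. The embryoid bodies were aggregates in suspension that received BMP4 at 40 nM and were taken after 6 days. The perivascular progenitors came from such embryoid bodies, which were dissociated and plated on collagen in an endothelial growth medium, where the adherent cells were passaged. All groups therefore rest on 1 cell line, and the labels do not say whether the arrays of a group are separate cultures.

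Anterior neuroectoderm is the part of the early embryo that gives rise to forebrain and eyes, and it forms by default where BMP and NODAL signals are kept low. OTX2 is a homeodomain transcription factor needed for forebrain and midbrain, ZIC2 a zinc finger factor whose loss disturbs forebrain midline formation in humans, and SOX3 a SOXB1 factor of neural progenitors. MSI1 (Musashi) is an RNA-binding protein of neural stem cells, and FABP7 is the brain lipid-binding protein of radial glia. OTX2, ZIC2 and SOX3 are also transcribed in pluripotent cells, so that RNA of these genes in hESC is not by itself a sign of neural differentiation.

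All 5 genes had their lowest levels in the progenitors. By the embryoid body stage OTX2, ZIC2 and FABP7 had already fallen 2.99-fold to 3.73-fold, while SOX3 and MSI1 were less than 2-fold below hESC. In the progenitors OTX2, FABP7 and SOX3 were not detected on any array, ZIC2 was detected at a level 47.8-fold below hESC, and MSI1 was 2.33-fold lower. In these bulk samples fewer cells with a transcript and less of it per cell cannot be told apart. A gene is said to have fallen or risen where limma's two-sided moderated test gave an adjusted p under 0.05 and the change was at least 2-fold. Of the 5 genes, 3 fell in embryoid bodies against hESC and none rose, where 1.59% of all genes fell and 1.5% rose (3.09% in either direction). When near-identical arrays were averaged, which leaves embryoid bodies 1 column, none of the 3 passed (adjusted p = 0.432 for OTX2, 0.513 for ZIC2 and 0.456 for FABP7, limma), nor did any of the 11991 genes, of which 977 had an unadjusted p under 0.05. With median scaling in place of quantile normalization the split of all genes there was 93 higher and 498 lower, against 180 higher and 191 lower. All 5 fell in the progenitors relative to hESC, as did 19% of all genes, while 14.7% rose (33.7% in either direction). These shares cover genes with a probe detected on 4 or more arrays, so genes detected on the 3 progenitor arrays alone were left out. Over all 21683 probes, named or not, 3049 rose and 3342 fell in this comparison. Relative to embryoid bodies 4 of the 5 fell in the progenitors and none rose, where 18.9% of all genes fell and 15.3% rose (34.2% in either direction). Values below are normalized log2 intensities, and a difference is the log2 level in the first-named group minus that in the second.

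**Figure D1:**
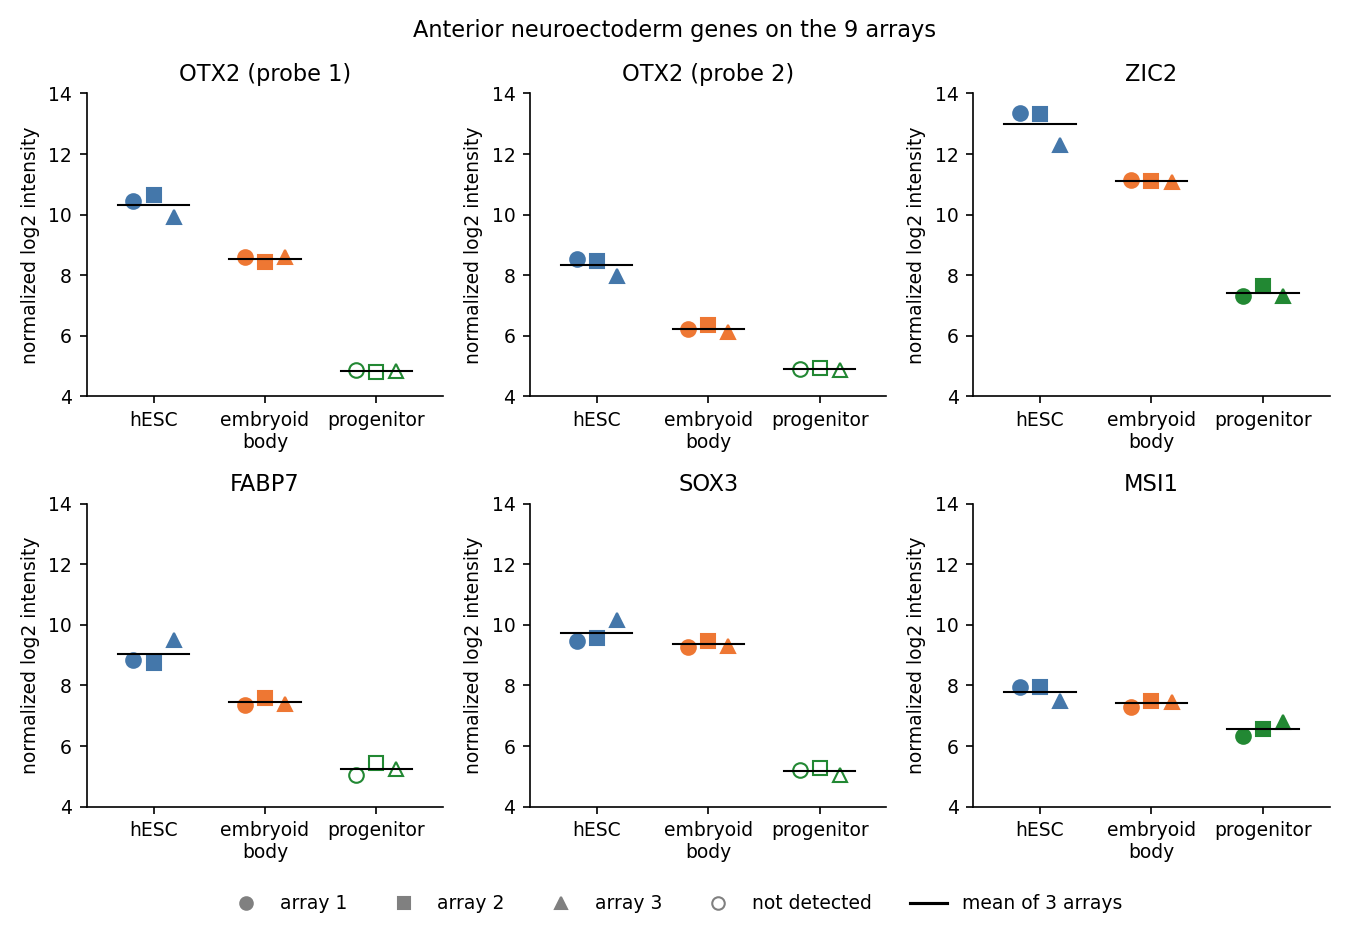
Normalized log2 intensity (y axis) of each of the 6 probes on the 9 arrays, by group. Marker shapes give the array number, open markers a detection p-value of 0.05 or more, and the line the mean of 3 arrays. All 5 genes are lowest in the progenitors, and hESC 3 lies below hESC 1 and 2 for OTX2, ZIC2 and MSI1 and above them for FABP7 and SOX3.

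The sequence before the transcription start is shown for those of the 5 genes with an entry in RefSeq's promoter table (GRCh38.p14). Each window holds 250 bases on the gene's own strand. Whether this sequence has a part in the falls was not tested. Capitals mark exact matches, on either strand, to 5 motifs. They are TATAAA, which is a form of the TATA box, CCAAT, the box of that name, and GGGCGG, the GC box. The others are TAATCC, a core bound by OTX factors, and ACAATG, a core bound by SOX factors. The windows are chr14:56810480-56810729 (minus strand) for the start of OTX2 shown, chr13:99981534-99981783 (plus strand) for ZIC2, chr6:122779466-122779715 (plus strand) for FABP7 and chrX:140505070-140505319 (minus strand) for SOX3.
OTX2: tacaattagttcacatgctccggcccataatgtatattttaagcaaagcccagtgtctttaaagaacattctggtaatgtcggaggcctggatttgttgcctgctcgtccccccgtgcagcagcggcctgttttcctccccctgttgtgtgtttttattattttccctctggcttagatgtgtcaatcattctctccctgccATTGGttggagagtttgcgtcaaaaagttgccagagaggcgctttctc
ZIC2: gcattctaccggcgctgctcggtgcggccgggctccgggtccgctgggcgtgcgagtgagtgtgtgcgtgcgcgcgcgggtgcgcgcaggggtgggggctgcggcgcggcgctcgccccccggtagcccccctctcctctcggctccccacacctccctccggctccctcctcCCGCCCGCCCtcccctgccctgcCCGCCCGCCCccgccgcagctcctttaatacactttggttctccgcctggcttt
FABP7: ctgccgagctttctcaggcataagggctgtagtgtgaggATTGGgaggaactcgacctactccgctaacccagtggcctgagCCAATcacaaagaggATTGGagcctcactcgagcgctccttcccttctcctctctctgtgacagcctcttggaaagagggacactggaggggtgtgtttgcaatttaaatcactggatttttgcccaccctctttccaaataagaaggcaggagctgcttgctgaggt
SOX3: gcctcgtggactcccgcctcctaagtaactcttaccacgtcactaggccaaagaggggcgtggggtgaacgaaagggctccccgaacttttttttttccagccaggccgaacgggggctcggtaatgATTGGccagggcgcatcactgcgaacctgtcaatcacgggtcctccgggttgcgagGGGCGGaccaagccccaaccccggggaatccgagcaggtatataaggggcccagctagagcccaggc
The windows were unlike one another in base composition. ZIC2 had 75.6% G and C and 31 CpG dinucleotides, more CpG than 89.2% of the 35116 windows in the table, whereas OTX2 had 47.2% and 7, FABP7 52.8% and 5, and SOX3 61.6% and 17. The median window held 11. GC boxes were found 4 times in ZIC2, where matches overlap each other, and once in SOX3 (42.6% of all windows have at least 1). CCAAT boxes were found 3 times in FABP7 and once each in OTX2 and SOX3 (32.0% of all windows). TATAAA, the OTX core and the SOX core had 0 matches in these windows (10.7%, 5.62% and 9.29% of all windows have them). Only the exact strings were searched, so variants such as TATATAAG in the SOX3 window were not counted. The window of another annotated start of OTX2, at chr14:56805668-56805917, held none of the 5 motifs.

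OTX2 was measured by 2 probes. The brighter probe read 10.44, 10.64 and 9.92 on hESC 1, 2 and 3, 8.60, 8.43 and 8.60 on the embryoid body arrays, and 4.88, 4.81 and 4.83 on the progenitor arrays. The 3 groups did not overlap, and hESC 3 was the lowest of the hESC arrays. In embryoid bodies OTX2 averaged 8.54 ± 0.10, against 10.33 ± 0.37 in hESC (SD, n = 3 each), a difference of −1.79 (SE 0.17, adjusted p = 0.000413, limma). The progenitor signal was not distinguishable from background on any array (detection p-values 0.864 to 0.909), so that the fall there is given as a bound: at least 5.54-fold below embryoid bodies and at least 19.2-fold below hESC. Bounds of this kind set the dimmer group at the lowest signal of any detected probe on each array, and they hold for the background-corrected scale. In the authors' deposited log2 values OTX2 was 3.72-fold below embryoid bodies and 10.7-fold below hESC.

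The dimmer OTX2 probe read 8.54, 8.48 and 7.97 on the hESC arrays, 6.22, 6.34 and 6.14 on the embryoid body arrays, and 4.92, 4.92 and 4.86 on the progenitor arrays. It showed the same order of groups, with embryoid bodies just above background (detection p-values 0.0130 to 0.0247) and progenitors undetected. In the fit over all 21683 probes it fell in embryoid bodies against hESC by 2.10 (SE 0.15, adjusted p = 0.000113, limma), beside 1.79 for the brighter probe. Among all probes 1.43% fell in this comparison. With progenitors undetected, the dimmer probe was at least 4.78-fold below hESC there (15.4% of probes fell) and at least 1.12-fold below embryoid bodies (15.2% of probes fell), so that a 2-fold fall in the second comparison is not shown by this probe.

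ZIC2 fell at each stage and, unlike OTX2 and SOX3, was still detected in progenitors. It read 13.37, 13.33 and 12.31 on the hESC arrays, 11.14, 11.11 and 11.06 on the embryoid body arrays, and 7.32, 7.65 and 7.31 on the progenitor arrays. The groups lay far apart, and hESC 3 differed from the mean of hESC 1 and 2 by −1.04, a step that 3.17% of all genes exceeded in size. Embryoid bodies (SD 0.04, n = 3) differed from hESC (SD 0.60, n = 3) by −1.90 (SE 0.26, adjusted p = 0.00189, limma). In progenitors it averaged 7.43 ± 0.19, a difference of −3.68 from embryoid bodies (adjusted p = 1.92e-06, limma) and of −5.58 from hESC (SE 0.26, adjusted p = 1.39e-07, limma). Its probe was detected on all 3 progenitor arrays. In the authors' deposited log2 values these differences were 7.69-fold and 27.7-fold.

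SOX3 did not pass the test at the embryoid body stage. It read 9.46, 9.58 and 10.17 on the hESC arrays, 9.28, 9.48 and 9.32 on the embryoid body arrays, and 5.22, 5.26 and 5.06 on the progenitor arrays. Embryoid bodies overlapped hESC, and the highest value of all was that of hESC 3. SOX3 averaged 9.36 ± 0.10 in embryoid bodies, against 9.73 ± 0.38 in hESC (SD, n = 3 each), a difference of −0.37 with a 95% confidence interval of −0.77 to 0.02 (adjusted p = 0.161, limma). That interval does not reach a 2-fold fall, but it counts near-identical arrays as separate replicates. It may be too narrow if they are not separate cultures, which the labels do not say. On progenitor arrays SOX3 was undetected (detection p-values 0.470 to 0.694), at least 9.77-fold below embryoid bodies and at least 12.7-fold below hESC. The fitted differences were −4.18 (adjusted p = 7.05e-08, limma) and −4.55 (adjusted p = 4.13e-08, limma). In the authors' deposited log2 values SOX3 was 4.98-fold below embryoid bodies and 6.25-fold below hESC.

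SOX3 thus passed the test between embryoid bodies and progenitors and not between hESC and embryoid bodies, while OTX2 and ZIC2 passed it in both steps. Whether the embryoid body change of SOX3 differs from that of OTX2 or ZIC2 was not tested.

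**Figure D2:**
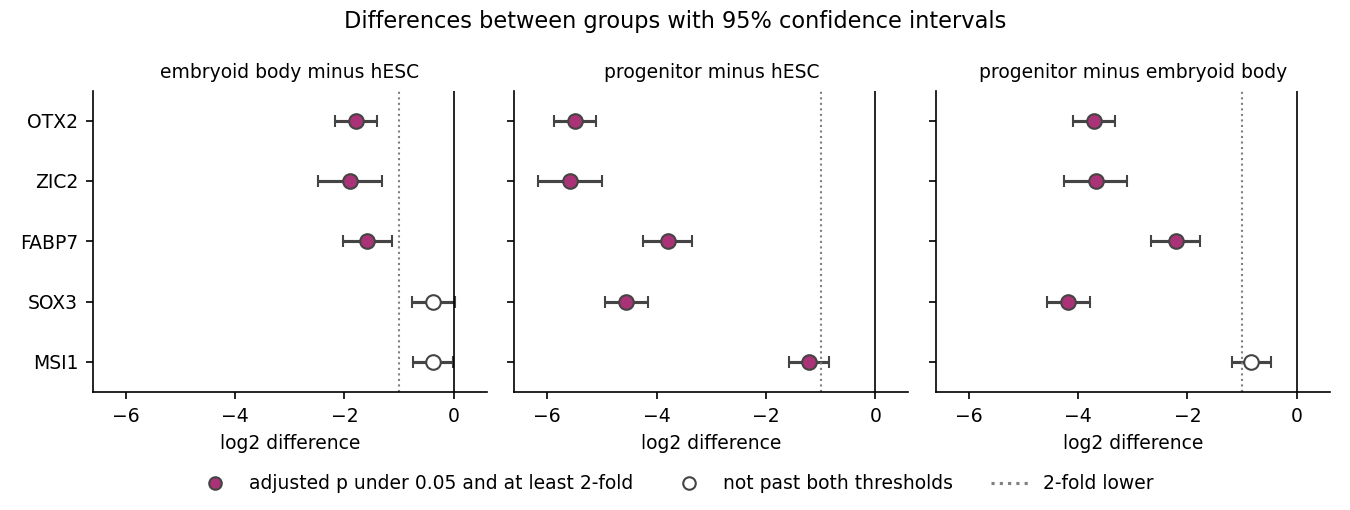
Log2 differences (x axis) of the 5 genes in the 3 comparisons, with 95% confidence intervals from limma. Filled points passed both thresholds: 3 genes in the left panel (embryoid bodies against hESC), 5 in the middle panel (progenitors against hESC) and 4 in the right panel (progenitors against embryoid bodies). Intervals of SOX3 and MSI1 in the left panel lie above a 2-fold fall, with near-identical arrays counted as separate replicates.

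FABP7, a lipid chaperone, read 8.84, 8.75 and 9.49 on the hESC arrays, 7.35, 7.60 and 7.39 on the embryoid body arrays, and 5.03, 5.43 and 5.23 on the progenitor arrays. Its groups did not overlap, and hESC 3 was the highest array. Embryoid bodies averaged 7.45 ± 0.13, against 9.03 ± 0.41 in hESC (SD, n = 3 each), a difference of −1.58 (SE 0.20, adjusted p = 0.00137, limma). Progenitors did not show a detected signal (detection p-values 0.304 to 0.729), at least 2.59-fold below embryoid bodies and at least 7.76-fold below hESC. The fitted differences were −2.21 (adjusted p = 9.54e-06, limma) and −3.80 (adjusted p = 3.00e-07, limma). In the authors' deposited log2 values the step from embryoid bodies to progenitors was under 2-fold, at −0.89 (adjusted p = 0.000386, limma), and FABP7 was 4.07-fold below hESC in progenitors.

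MSI1 had the smallest difference of the 5 genes in both progenitor comparisons. It read 7.95, 7.94 and 7.49 on the hESC arrays, 7.29, 7.49 and 7.44 on the embryoid body arrays, and 6.34, 6.57 and 6.81 on the progenitor arrays. The probe was detected on all 9 arrays, and the lowest hESC array was level with the highest embryoid body array to 2 decimals. MSI1 averaged 7.41 ± 0.10 in embryoid bodies, against 7.79 ± 0.27 in hESC (SD, n = 3 each), a difference of −0.39 (95% confidence interval −0.75 to −0.02, adjusted p = 0.119, limma). In progenitors it averaged 6.57 ± 0.23, a difference of −0.83 from embryoid bodies (adjusted p = 0.00131, limma), under 2-fold, and of −1.22 from hESC (SE 0.16, adjusted p = 0.000124, limma). The last of these passed 2-fold narrowly, and it was −0.61 in the authors' deposited log2 values, −0.66 without background correction and −0.98 with an offset of 50. MSI2, the other Musashi gene, was 0.25 lower in embryoid bodies (adjusted p = 0.302, limma) and 0.95 lower in progenitors than in hESC (adjusted p = 0.000594, limma), and passed 2-fold in neither. The progenitor difference passed 2-fold with median scaling (−1.25), without progenitor 1 (−1.07), without progenitor 3 (−1.03) and with near-identical arrays averaged (−1.05).

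Set among all 11991 genes, the changes of OTX2, ZIC2 and FABP7 in embryoid bodies stood near the lower end: 0.334%, 0.267% and 0.475% of genes had a lower difference from hESC. For SOX3 and MSI1 the shares were 15.6% and 14.9%. The median of the 5 differences was −1.58 there, against −0.01 over all genes. With the 3 genes undetected in progenitors at their bounds, the median in progenitors against hESC was −3.66 (fitted −4.55), against −0.07 over all genes. In progenitors against embryoid bodies it was −2.47 (fitted −3.68), against −0.08. Every embryoid body array lay below every hESC array for 4 of the 5 genes (25.5% of all genes), MSI1 by a gap smaller than 2 decimals show. For all 5 genes every progenitor array lay below every hESC array (39.0% of all genes) and below every embryoid body array (40.7% of all genes).

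Arrays within a group were nearly alike except hESC 3 and progenitor 2. Of all genes, 2 differed 2-fold between hESC 1 and 2, and 446 and 425 between hESC 3 and those arrays. Progenitor 2 differed 2-fold from progenitors 1 and 3 in 657 and 600 genes, but for the 5 genes it stayed within 0.34 of their mean. Between 17964 and 21172 of 47323 probes were detected per array, and the p-values given here reflect array-to-array spread alone.

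On hESC 3 the 5 genes did not shift the same way. ZIC2, OTX2 and MSI1 differed from the mean of hESC 1 and 2 by −1.04, −0.62 and −0.46, towards their embryoid body levels. FABP7 and SOX3 lay 0.70 and 0.65 above that mean, away from embryoid bodies. Between hESC 1 and 2 these 5 genes differed by at most 0.20. Shifts larger in size than those of OTX2, FABP7, SOX3 and MSI1 were found for 10.5%, 8.13%, 9.58% and 17.7% of all genes. NANOG, a pluripotency factor, was not detected on hESC 3 (5.23, against 11.23 and 11.18 on hESC 1 and 2), and its part in these shifts was not tested. Without hESC 3 the embryoid body differences were −2.25 for ZIC2, −2.0 for OTX2, −1.35 for FABP7, −0.54 for MSI1 and −0.16 for SOX3, with the same 3 genes past both thresholds.

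**Figure D3:**
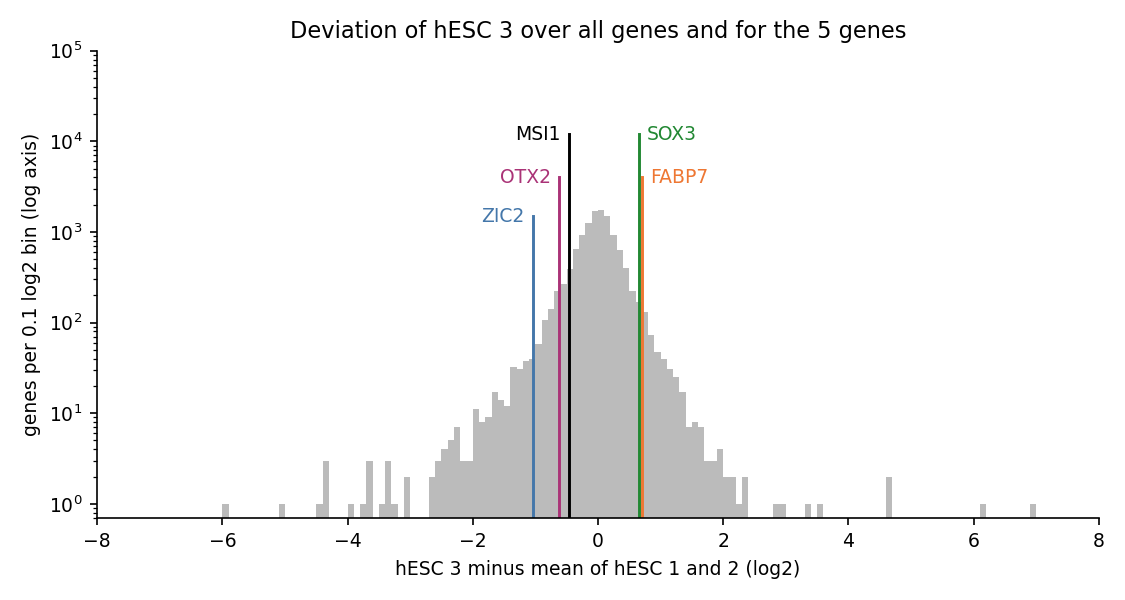
Log2 level on hESC 3 minus the mean of hESC 1 and 2 (x axis) for all 11991 genes, as a histogram with a logarithmic count axis. Vertical lines mark the 5 genes, whose height carries no value: ZIC2, OTX2 and MSI1 lie at −1.04, −0.62 and −0.46, and SOX3 and FABP7 at 0.65 and 0.70.

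Over the 9 arrays OTX2, read by its brighter probe, and ZIC2 followed each other closely on the background-corrected scale. Likeness was measured as the root mean square difference between log2 profiles that were each centred on their own mean, and the search covered the other 11990 genes. For OTX2 and ZIC2 this distance was 0.178, and each was the nearest gene to the other. Next for both came NODAL, the ligand that patterns early mesendoderm (0.187 from OTX2, 0.195 from ZIC2), and then GDF3, a TGF-beta family ligand (0.280 and 0.341). NODAL read 10.99, 11.08 and 10.24 on the hESC arrays, 8.70, 8.75 and 8.71 on the embryoid body arrays, and 4.93, 4.80 and 4.88 on the progenitor arrays, where it was undetected. Like OTX2 and ZIC2, it was lower on hESC 3 than on hESC 1 and 2. The arrays of a group share their culture conditions, so these 9 points are not independent. OTX2, NODAL and GDF3 were undetected on the progenitor arrays and ZIC2 was not, so the distances and nearest ranks rest in part on values at background. The dimmer OTX2 probe was not part of this search. Its fitted difference from hESC was −2.10 in embryoid bodies, against −1.90 for ZIC2, and −3.43 in progenitors, against −5.58. In the authors' deposited log2 values progenitors differed from hESC by −3.42 for OTX2 and −4.79 for ZIC2.

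The other members had other neighbours. SOX3 was nearest to OVOL2, a zinc finger repressor of mesenchymal genes (0.100), PRKCB, a protein kinase C (0.149), and LINGO1, a neuronal membrane protein (0.152). OVOL2 read 9.18, 9.24 and 9.87 on the hESC arrays, 9.08, 9.13 and 9.14 on the embryoid body arrays, and 4.72, 4.80 and 4.76 on the progenitor arrays, and like SOX3 it was highest on hESC 3. FABP7 was nearest to the zinc finger factor BCL11B (0.297), the serine protease TMPRSS2 (0.349) and the dopamine receptor DRD4 (0.376). MSI1 was nearest to ZNF878 (0.110), DZANK1 (0.125) and TYMSOS (0.129). In progenitors SOX3, FABP7 and their neighbours other than DRD4 were undetected, as were ZNF878 and DZANK1. The latter 2 genes were also undetected on embryoid body arrays 1 and 3. These distances too rest in part on values at background. SOX3 was 0.692 from OTX2, a distance within which 44 other genes lay closer to OTX2, and MSI1 was 1.79 from OTX2, with 1768 genes closer.

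**Figure D4:**
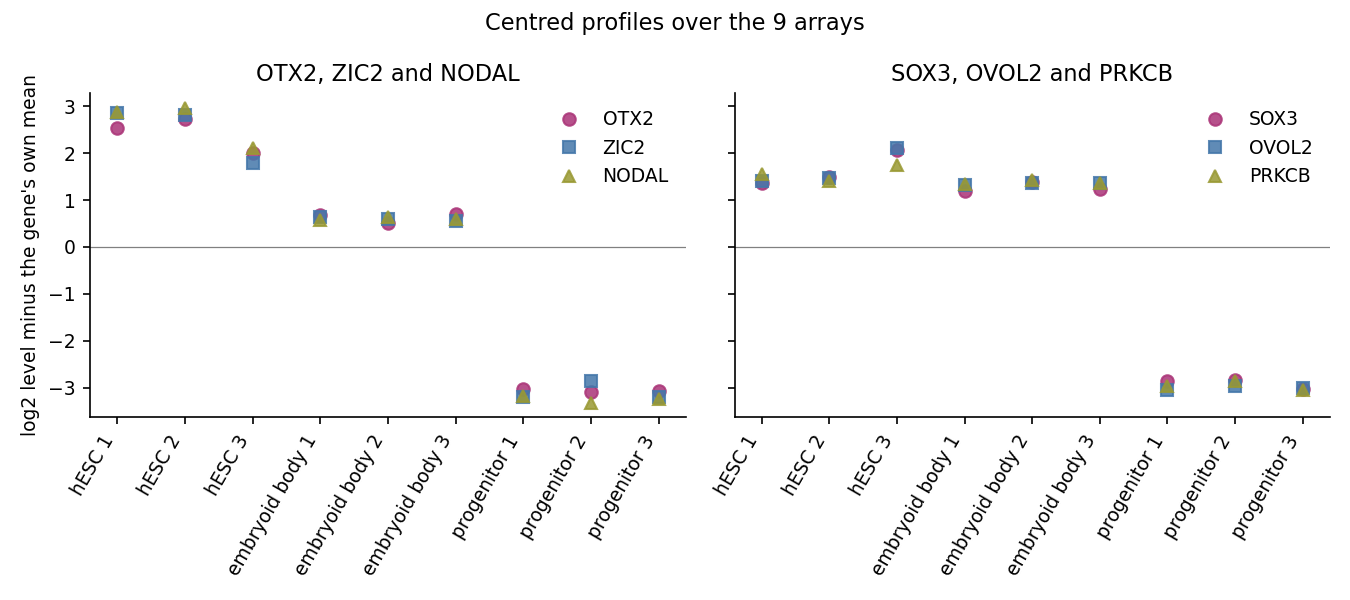
Log2 level minus the gene's own mean over the 9 arrays (y axis) by array (x axis), with OTX2 read by its brighter probe. OTX2, ZIC2 and NODAL (left) step down at both stages and are lower on hESC 3 than on hESC 1 and 2, while SOX3, OVOL2 and PRKCB (right) stay near their hESC level in embryoid bodies, are highest on hESC 3 and drop in progenitors.

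Of a list of 42 related neuroectoderm genes, 20 could be tested and the rest were not analysed here. In embryoid bodies against hESC 3 of the 20 fell and none rose, where 1.59% of all genes fell and 1.5% rose. The other 17 were not called (median of the 20 −0.19, against −0.01 over all genes). Those that fell were SFRP1, a secreted WNT antagonist (−1.99, SE 0.41, adjusted p = 0.0112, limma), CDH2, the neural cadherin (−1.90), and HESX1, a homeodomain repressor of the forebrain and pituitary (−1.33, adjusted p = 0.000543, limma). None of these 3 passed when near-identical arrays were averaged (adjusted p = 0.606 for SFRP1, 0.432 for CDH2 and 0.451 for HESX1, limma). HESX1 followed the OTX2 order of levels, at 8.68 ± 0.05 in embryoid bodies against 10.01 ± 0.15 in hESC, and undetected in progenitors, at least 15.3-fold below hESC. In the fit reported here none of the tested family members of the 5 genes passed both thresholds at this stage. SOX2, the SOXB1 relative of SOX3, averaged 11.24 ± 0.13 in embryoid bodies, against 11.68 ± 0.18 in hESC (−0.44, adjusted p = 0.0275, limma). SOX21 was 0.93 lower (adjusted p = 0.112, limma), and without hESC 3, where it read 9.73 against 11.39 and 11.16 on hESC 1 and 2, the difference was −1.45 (adjusted p = 0.00135, limma) and passed both thresholds, as it did with median scaling (−1.25, adjusted p = 0.0253, limma). FABP5, an epidermal relative of FABP7, was −0.09 (adjusted p = 0.874, limma).

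The related genes moved both ways in the progenitors. Against hESC 9 fell, 5 rose and 6 were not called (median −0.95, or −0.91 with undetected genes at their bounds, against −0.07 over all genes, of which 19% fell and 14.7% rose). Among the family members SOX2 fell at least 48.8-fold, the SOX21 difference was −4.74 (adjusted p = 4.78e-06, limma) and that of FABP5 −2.41 (adjusted p = 0.000133, limma). PTPRZ1, a receptor phosphatase of glial progenitors, fell at least 42.3-fold, the WNT modulator SFRP2 at least 29.8-fold. In the authors' deposited log2 values SOX2, PTPRZ1, SFRP2 and HESX1 were 22.5-fold, 20.8-fold, 13.2-fold and 7.18-fold below hESC. By contrast the nuclear receptor NR2F1 rose by 5.83 (adjusted p = 4.43e-06, limma) and the homeodomain factor MEIS2 by 4.72 (adjusted p = 0.000945, limma). MEIS2 was undetected on hESC 3 (5.29) and read 9.10 and 9.07 on hESC 1 and 2.

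Against embryoid bodies 6 of the 20 fell, 6 rose and 8 were not called, where 18.9% of all genes fell and 15.3% rose. The median of the 20 was −0.66, or −0.28 with undetected genes at their bounds, against −0.08 over all genes. PTPRZ1 fell at least 39.0-fold, SOX2 at least 36.0-fold and SFRP2 at least 27.6-fold, while NR2F1 (5.56), NCAM1, a neural cell adhesion molecule (4.78), and MEIS2 (4.15) rose. MEIS2 did not pass with near-identical arrays averaged (4.21, adjusted p = 0.0793, limma). In the authors' deposited log2 values PTPRZ1, SOX2 and SFRP2 were 19.3-fold, 16.8-fold and 12.2-fold below embryoid bodies. SOX21 (−3.81) and FABP5 (−2.32) fell as well.

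**Figure D5:**
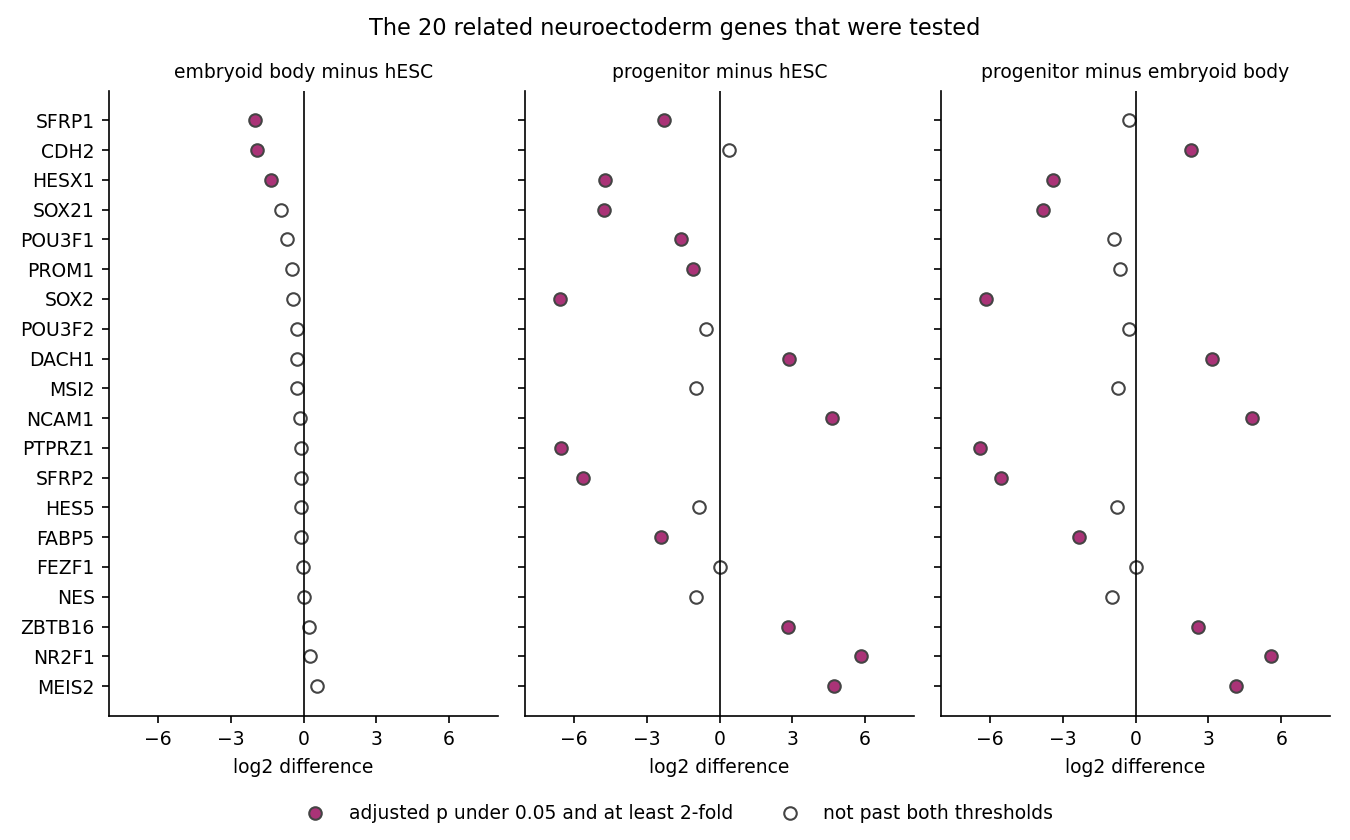
Log2 differences (x axis) of the 20 tested related genes in the 3 comparisons, ordered by the difference of embryoid bodies from hESC. Filled points passed both thresholds: 3 lower in the left panel, 9 lower and 5 higher in the middle, and 6 lower and 6 higher on the right.

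Markers of other cell states moved with the progenitor falls. Lists for BMP response, glia, neural crest, and retinal pigment epithelium and eye field were also drawn up and are not described here. The summed normalized intensity of 7 undifferentiated stem cell markers was 72403 to 84887 on the hESC arrays, 76999 to 77695 on the embryoid body arrays and 797 to 845 on the progenitor arrays, and POU5F1, NANOG, SOX2 and L1TD1 were undetected in progenitors. Its part in the progenitor falls was not tested. In embryoid bodies, where OTX2, ZIC2 and FABP7 fell, that sum lay within the hESC range but above hESC 1 and 2. The upper end of the range was hESC 3, where the marker DNMT3B read 14.94, against 14.42 and 14.41 on hESC 1 and 2. POU5F1 averaged 13.22 ± 0.04 in embryoid bodies, against 12.85 ± 0.06 in hESC (SD, n = 3 each). Of 6 tested pericyte and mural cell markers all were detected on every progenitor array, with a summed intensity of 44121 to 44905, against 11132 to 15753 in hESC. CD44 (14.49 in progenitors, 9.04 in hESC), ACTA2, PDGFRB and TAGLN had higher means in progenitors, while RGS5 (6.25 in progenitors, 7.06 in hESC) and THY1 (8.81 in progenitors, 11.72 in hESC) had lower ones. The 5 fibroblast markers were also detected on every progenitor array and summed to 116100 to 184131 there, against 2833 to 5566 in hESC, and the part of either list in the falls was not tested. Of 7 neuronal markers 3 were detected on all progenitor arrays and DCX and ELAVL3 on none, and the sum was 11079 to 12496 in progenitors, against 8658 to 11313 in hESC. Of these 7 STMN2 alone had a higher mean in progenitors (12.68, against 8.28 in hESC), and GAP43, for example, averaged 6.09 in progenitors and 10.24 in hESC.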

How the data were processed

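The labels give 3 groups of 3 arrays and number the arrays of each group. The authors' deposited table without normalization holds a mean bead intensity and a detection p-value for each probe and array, and a further deposited table holds log2 values of 20127 probes. Every probe in that second table had a detection p-value below 0.05 on 4 or more arrays. BeadStudio is named in the submitters' processing notes; no source used here gives its version, any background correction or a genome build. Probes of the log2 table were named through Entrez identifiers of the platform annotation and RefSeq symbols: 15592 had 1 symbol, 4 several, and the rest none.

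In R 4.3.3, limma 3.58.1 was run on the intensities: neqc took the background from the detection p-values, and its offset was 16, followed by quantile normalization and a log2 transform. Probes detected on at least 3 arrays were kept (21683), each gene was represented by its brightest probe (11991 genes), and lmFit and eBayes fitted the 9 arrays in a single model. Benjamini-Hochberg adjustment ran over all genes of a comparison. The procedure was tested on simulated data in which all arrays varied independently, so that test does not cover near-identical arrays. The number of arrays limits the precision.

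The 5 members, the related gene list and the markers were chosen with earlier results of these data known. The genes named in the text are the members, their tested family members, up to 5 called related genes per comparison, and the 3 nearest profiles of each member. The markers named singly were chosen after their values were seen. The deviations of same-numbered arrays correlated between −0.12 and 0.06 over all genes, and those of differently numbered arrays between −0.11 and 0.16. The main fit did not pair arrays by number, and whether same-numbered arrays share a culture is not settled by these values. Of 21 alternatives, 20 were run; chip as a block was not run, since the column names used here give no chip.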

Additional observations from a re-analysis of the deposited data

How the results depend on the processing

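Over 20 alternatives the 15 differences of the 5 genes kept their direction in all 300 values, and 293 kept their side of the thresholds. The other 7 were FABP7 in progenitors against embryoid bodies and MSI1 in progenitors against hESC, given in the report, and OTX2, ZIC2 and FABP7 in embryoid bodies against hESC when near-identical arrays were averaged. In that fit (hESC 1 with 2, the 3 embryoid body arrays together, progenitors 1 with 3) embryoid bodies are 1 column and 2 residual degrees of freedom remain. It called 0 of the 5 genes, 0 related genes and 0 of all genes in embryoid bodies against hESC (977 genes at an unadjusted p under 0.05), with OTX2 at −1.69 (adjusted p = 0.432), ZIC2 at −1.73 (0.513) and FABP7 at −1.70 (0.456), and still called 5 and 4 of the 5 genes in the progenitor comparisons. Leaving out each array in turn kept 3, 5 and 4 of the 5 genes called in the 3 comparisons.

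Of all genes, 371 changed in embryoid bodies against hESC, but 591 under median scaling (93 higher, 498 lower, median of all genes −0.28), 147 without background correction, 151 in the authors' values, 246 with an offset of 50 and 589 over single probes. With median scaling the embryoid body differences were −2.10 for OTX2, −2.17 for ZIC2 and −1.88 for FABP7, and SOX3 (−0.70, adjusted p = 0.0107) and MSI1 (−0.69, 0.0118) passed the p threshold but stayed under 2-fold. The authors' values and single probes gave 2627 and 6391 changed in progenitors against hESC (4043), and 2716 and 6478 against embryoid bodies (4099). In the authors' values the progenitor differences from hESC were smaller in size: −3.42 for OTX2, −4.79 for ZIC2, −2.64 for SOX3 and −2.03 for FABP7. A replicate block changed no call of the 5 genes (OTX2 in embryoid bodies −1.79, adjusted p = 0.00278; 361 genes changed in all). Without a detection filter the genes tested were the same, since every named probe passed it.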
